A study of Mus musculus with 32 samples.

Results

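Whole brains of mice taken 21 days after BAL17VII lymphoma cells had been implanted were compared with BAL17VII cells kept in culture. The comparison used 11 of the 32 samples of the series, 5 brains and 6 arrays of the cultured line. BAL17 is a B lymphoma line that arose in a BALB/c mouse, and the labels describe BAL17VII as a line derived from it. Each implanted BALB/c wild-type mouse received 500000 cells in the brain, and all samples carry the strain label BALB/c. Further groups place the result: 5 BAL17 brains at day 21 with 6 arrays of cultured BAL17, and 5 brains of mice injected with PBS and taken at day 28. There was no PBS group at day 21. The hosts were wild type, so brain samples can hold host immune cells beside the implanted cells. Whether the 6 arrays of cultured cells are separate cultures is not stated in the labels, so p-values measure the spread between these arrays, which may be technical. Arrays of cultured lines and of brains carry different codes in the labels, so the set of arrays and the step from culture to brain cannot be told apart. Extraction is labelled in the same words for all samples, as frozen sections and Trizol, also for the cultured lines.

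Most of the RNA of a whole brain comes from neurons and glia. To look past that tissue, genes were read whose mean log2 intensity in the 5 PBS brains lay below 6.733, the median of all named probe sets on those arrays. These brain-dim genes numbered 10174 of 19938 named genes. The PBS arrays chose them and the compared arrays did not. All levels below are log2 intensities, differences are log2 fold changes ± SE with BAL17VII brains minus cultured BAL17VII unless another pair is named, and a gene was called at a limma adjusted p under 0.05, two-sided, adjusted over all 19938 genes.

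B cells carry a receptor whose signal chains Cd79a and Cd79b pass antigen contact on through Syk, Blnk, Btk and Vav1. They also show peptides to helper T cells on MHC class II molecules, whose genes are switched on by the transactivator Ciita and by interferon gamma. Dividing lymphoma cells add transcripts of mitosis and DNA synthesis that resting brain hardly holds. In a bulk sample such as a whole brain, fewer cells of a type and less RNA per cell cannot be told apart.

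Promoter windows of 5 genes are shown as examples of the MHC class II, division and interferon genes described below. They were read from RefSeq sequence of build GRCm38.p6, cover the 250 bases before the gene start, and are written 5′ to 3′ on the strand of the gene. Capitals mark CCAAT on either strand, the letters of the box that the factor NF-Y binds, and GAAANNGAAA on either strand, the letters of an interferon-stimulated response element. Marked matches do not overlap each other. The window of the class II gene H2-Aa lies at chr17:34287824-34288073 on the minus strand, and that of H2-Eb1 at chr17:34305617-34305866 on the plus strand. The windows of the division genes are at chr11:99024190-99024439 on the minus strand for Top2a and at chr12:24708004-24708253 on the plus strand for Rrm2. The window of Ifit3, an interferon response gene, lies at chr19:34583279-34583528 on the plus strand.
H2-Aa: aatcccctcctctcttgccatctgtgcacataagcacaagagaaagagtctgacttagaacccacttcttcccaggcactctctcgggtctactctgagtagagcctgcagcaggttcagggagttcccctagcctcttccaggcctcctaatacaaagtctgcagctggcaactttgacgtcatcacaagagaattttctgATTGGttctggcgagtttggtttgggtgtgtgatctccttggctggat
H2-Eb1: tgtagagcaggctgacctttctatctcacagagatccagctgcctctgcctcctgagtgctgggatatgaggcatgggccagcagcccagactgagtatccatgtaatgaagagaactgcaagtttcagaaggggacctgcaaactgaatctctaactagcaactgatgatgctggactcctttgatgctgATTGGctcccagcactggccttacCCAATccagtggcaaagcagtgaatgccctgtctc
Top2a: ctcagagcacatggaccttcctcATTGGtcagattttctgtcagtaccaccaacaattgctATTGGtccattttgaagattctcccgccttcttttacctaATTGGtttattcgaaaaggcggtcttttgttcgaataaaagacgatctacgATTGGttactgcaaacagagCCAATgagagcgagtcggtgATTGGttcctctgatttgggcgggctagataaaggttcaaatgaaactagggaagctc
Rrm2: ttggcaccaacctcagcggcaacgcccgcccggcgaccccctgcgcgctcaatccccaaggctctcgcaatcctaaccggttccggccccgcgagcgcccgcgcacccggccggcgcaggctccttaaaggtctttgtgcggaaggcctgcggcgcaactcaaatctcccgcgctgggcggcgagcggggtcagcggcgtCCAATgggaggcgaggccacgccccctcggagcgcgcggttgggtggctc
Ifit3: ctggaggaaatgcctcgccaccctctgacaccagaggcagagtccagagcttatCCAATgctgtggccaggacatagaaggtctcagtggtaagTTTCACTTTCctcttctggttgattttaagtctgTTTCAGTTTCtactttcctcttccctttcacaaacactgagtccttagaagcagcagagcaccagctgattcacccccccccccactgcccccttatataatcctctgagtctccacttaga
CCAAT occurred 6 times in the Top2a window, 2 times in that of H2-Eb1 and 1 time in each of the other 3. Of 32851 promoter windows of the same length, 11120 (33.8%) held it. GAAANNGAAA occurred 2 times in the Ifit3 window and in none of the other 4, and 978 windows (2.98%) held it. A match describes these letters only.

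Correlations between arrays ranged from 0.9789 to 0.9925 among BAL17VII brains, from 0.9861 to 0.9914 among arrays of the cultured line and from 0.9839 to 0.9934 among PBS brains. The labels of tissue and cells were checked against fixed markers over all genes. All 15 neuron genes, all 13 myelin genes and 9 of 10 astrocyte genes rose against the cultured line, with medians of 4.20, 2.49 and 3.36, against rises in 26.1% of all 19938 genes. Snap25, a synaptic protein gene, had 13.07, 13.03, 13.06, 13.06 and 13.06 in BAL17VII brains 1 to 5, against 5.4, 5.49 and 5.68 (lowest, median and highest) in cultured BAL17VII. The B lineage markers Cd79b and Pax5 were high in culture, while Ms4a1, which encodes CD20, was low there. BAL17VII brain 1 stood apart in lymphoma genes, with most values near the PBS level, so calls that change without it are named below.

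Genes of B cells and of dividing cells were lower in the brains than in culture. Among the brain-dim genes of each list with at least 4, the highest medians were those of microglia, pituitary and interferon gamma response genes. Of 10174 brain-dim genes, 849 (8.34%) rose and 4966 (48.8%) fell. The count of at least 2-fold changes was 168 rises (1.65%) against 1058 falls (10.4%). Of these falls, 1035 (97.8%) were of genes whose cultured mean lay at least 1 above the PBS mean. Of these rises, 141 (83.9%) were of genes whose PBS mean lay at least 1 above the cultured mean. In 151 of the 168 rises, BAL17VII brains lay within 0.5 of PBS brains. The difference of a list therefore depends on how far culture and PBS brains lay apart. Without brain 1 the counts of all calls were 813 rises and 4595 falls. The median difference was -0.18 over all genes and -0.25 over brain-dim genes. Centring each array on its median moved these medians to -0.30 and -0.37 and the counts to 637 rises and 6857 falls. Calls of small falls depend on this scaling, and differences are read against that shift. Values of 487 genes (4.79%) lay higher in every brain than in any culture array, and those of 2847 genes (28%) lower.

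To set levels in the brain on one scale, brain-dim genes with a cultured mean at least 3 log2 units above the PBS mean were taken, 199 line-high genes. On linear intensity each brain was given a position for each gene, with the PBS mean at 0% and the cultured mean at 100%. The choice used neither the implanted brains nor any test. The median position was 0.19%, 12.2%, 9.44%, 6.25% and 10% in BAL17VII brains 1 to 5, with a mean of 7.61% ± 4.66 (SD). PBS brains lay between -0.25% and 0.09%, near 0% by construction because their own mean sets that point. Brain 1 thus lay close to the PBS brains, and brain 2 lay highest. Of the 199 genes, 180 were lowest in brain 1. Across genes, positions in brains 2 to 5 ranked alike (Spearman correlations from 0.75 to 0.84), and those in brain 1 did not follow them (0.09 to 0.13). These correlations are across genes that share arrays and the same means, and are given as a description. The 5 BAL17 brains, on 179 genes chosen the same way from cultured BAL17, had 12.3%, 14.9%, 13.5%, 12.7% and 20.4%.

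**Figure D1:**
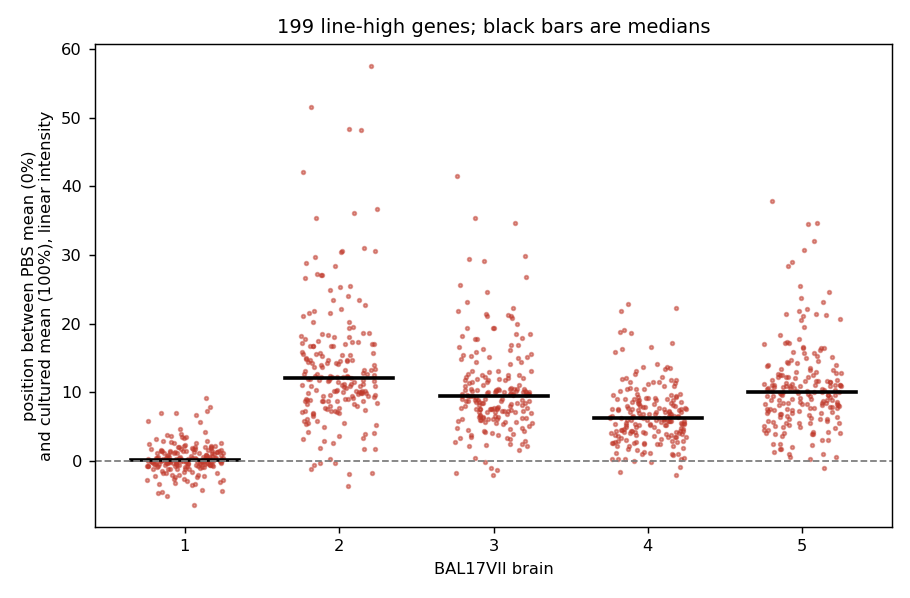
Position of each of 199 line-high genes (points) in BAL17VII brains 1 to 5 on linear intensity, with the PBS mean at 0% and the mean of cultured BAL17VII at 100%; black bars are medians. Brain 1 is centred on the PBS level at 0.19%, and the other 4 brains have medians from 6.25% to 12.2%.

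Positions differed between genes. Over the 5 brains the median position of a gene had a median of 8.57%, with quartiles at 5.95% and 11.4%, a lowest value of -1.12% and a highest of 37.9%. No gene exceeded 100%, 7 lay over 25% and 10 lay under 2%. The 7 highest, named after their values were seen, were H2-Ea (37.9%), Cd52 (34.7%), H2-Aa (32.05%), Fam111a (29.9%), Rrm2 (29.5%), Top2a (26.8%) and Shcbp1 (25.7%). H2-Ea and H2-Aa encode MHC class II chains, Cd52 a small surface protein of lymphocytes, Rrm2 a subunit of ribonucleotide reductase and Top2a a DNA topoisomerase. The 10 lowest included the meiosis gene Meiob (-1.12%), the kynureninase gene Kynu (0.07%), the early activation antigen Cd69 (0.23%), Orm2 (0.65%), the enolase gene Eno3 (1.07%) and the stress factor gene Atf3 (1.24%). Snord35a (-0.84%) and Snora75 (-0.28%) are small nucleolar RNA genes among them.

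Atf3, a transcription factor of the stress response, had 6.19, 6.58, 6.66, 6.42 and 6.25 in BAL17VII brains 1 to 5, against 10.35, 10.5 and 10.64 (lowest, median and highest) in cultured BAL17VII and 6.18, 6.19, 5.99, 6.05 and 6.02 in PBS brains. All 5 brains lay more than 3 log2 units under every culture array, brain 1 lay inside the PBS range and the other 4 lay less than 0.5 above it. It fell by 4.09 (SE 0.10, limma adjusted p = 4.97e-15), and without brain 1 the difference was -4.04. Cd69 had 4.42, 5.65, 4.43, 4.54 and 4.84, against 8.86, 8.94 and 9.12 in culture and 4.57, 4.42, 4.32, 4.52 and 4.49 in PBS brains. Only brain 2 and brain 5 exceeded the highest PBS brain, and the difference was -4.2 ± 0.18 (adjusted p = 3.28e-12). Kynu, an enzyme gene of tryptophan breakdown, had a difference of -3.55 ± 0.15, and Meiob one of -3.49 ± 0.14.

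Among the 12 falls with the largest change and no overlap, Ddx43, which encodes a helicase, and Pdcd1lg2, which encodes the checkpoint ligand PD-L2, fell most. Ddx43 had 4.36, 5.67, 5.26, 4.69 and 5.23 in BAL17VII brains, against 9.47, 9.65 and 9.72 in culture and 4.07 to 4.35 in PBS brains, a difference of -4.58 ± 0.18 (adjusted p = 1.02e-12). Pdcd1lg2 had 4.88, 6.56, 6.49, 6.24 and 6.4, against 10.52, 10.58 and 10.98 in culture and 4.83 to 5.6 in PBS brains, a difference of -4.56 ± 0.23 (adjusted p = 3.99e-11). Both were lowest in brain 1, where Ddx43 lay just above the PBS range and Pdcd1lg2 within it. Their positions, 2.41% and 3.08%, were under the median of line-high genes. The others of the 12 were Clec2i (-3.93), the adaptor gene Stap1 (-3.77), the symplekin gene Sympk (-3.73), the endosomal channel gene Mcoln2 (-3.59), the mitotic spindle gene Hmmr (-3.58), Cybb (-3.57), Atf3, Cd69, Snora75 (-3.99) and Snord35a (-3.74). Clec2i and the small nucleolar RNA genes belong to families of similar copies, so their values are uncertain.

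Of 17 brain-dim B lineage genes, 14 fell, 1 rose and 2 were not called, with a median of -2.035 against -0.249 over all brain-dim genes. The 9 among the line-high genes had a median position of 10.17%, close to the 8.57% of all 199 line-high genes. Cd79b, a signal chain of the B cell receptor, had 6.32, 8.91, 8.54, 7.92 and 8.54 in BAL17VII brains 1 to 5, against 10.37, 10.53 and 10.77 in cultured BAL17VII and 6.21, 5.59, 6.0, 6.38 and 6.03 in PBS brains. Brain 1 lay in the PBS range and the other 4 lay between both groups without reaching either. The difference was -2.51 ± 0.33 (adjusted p = 3.71e-06), and -2.08 without brain 1. Its partner Cd79a had 4.91, 7.44, 6.86, 6.33 and 6.92, against 8.52, 8.76 and 9.18 in culture (-2.28 ± 0.31, adjusted p = 6.96e-06). Blnk, the linker of the receptor (-3.39 ± 0.20), Pax5, the factor that keeps B cell identity (-3.07 ± 0.21), the inhibitory receptor gene Cd22 (-2.51 ± 0.15) and the transcription factor gene Spib (-1.98 ± 0.11) fell as well. Of these, Spib lay inside the PBS range in all 5 brains (5.67, 5.85, 5.48, 5.84 and 6.09, against 7.62, 7.74 and 7.95 in culture and 5.3 to 6.1 in PBS brains).

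Ms4a1 was the 1 gene of the list that rose. It had 4.52, 6.85, 6.57, 6.28 and 6.56 in BAL17VII brains 1 to 5, against 5.15, 5.26 and 5.65 in culture and 4.83, 4.91, 4.86, 4.96 and 5.19 in PBS brains. Brains 2 to 5 lay above every array of both other groups, and brain 1 lay below all of them. The difference was 0.86 ± 0.30 (adjusted p = 0.0195), and 1.26 without brain 1 (adjusted p = 1.36e-07). In BAL17 brains it averaged 7.26, against 5.31 in cultured BAL17, and the difference between the lines was not called (-1.09 ± 0.50, adjusted p = 0.167).

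All 8 brain-dim genes of B cell receptor signalling fell, with a median of -1.689. Among them were the kinase gene Syk (-2.55 ± 0.14), Vav1, an exchange factor of receptor signalling (-2.79 ± 0.15), and the adaptor gene Pik3ap1 (-1.61 ± 0.11). Btk, the kinase downstream of Syk, had 5.43, 7.23, 7.29, 6.89 and 7.0 in BAL17VII brains, against 9.88, 9.98 and 10.07 in culture and 4.78, 5.13, 4.4, 4.92 and 5.04 in PBS brains. All 5 brains lay under every culture array and above every PBS brain, brain 1 included. The difference was -3.2 ± 0.25 (adjusted p = 6.33e-09). Of 8 plasma cell genes 7 fell, led by Irf4, a factor of B cell activation (-3.15 ± 0.20), Mzb1 (-2.64 ± 0.18) and Derl3 (-1.83 ± 0.12), both of the secretory pathway. Of 4 brain-dim germinal centre genes 2 fell and 1 rose. Rgs13, a regulator of G protein signalling, had -3.19 ± 0.26, the sphingosine phosphate receptor gene S1pr2 -0.53 ± 0.10 and the death receptor gene Fas 0.23 ± 0.10.

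All 9 brain-dim MHC class II genes fell, with a median of -1.625. H2-Aa, the alpha chain of I-A, had 5.79, 9.19, 8.77, 7.71 and 8.67 in BAL17VII brains 1 to 5, against 9.93, 10.11 and 10.4 in cultured BAL17VII and 5.31, 6.26, 6.17, 5.97 and 5.67 in PBS brains. Brain 1 lay at the PBS level, and brain 2 came within 1 log2 unit of the lowest culture array. The difference was -2.13 ± 0.43 (adjusted p = 0.000345), and -1.57 without brain 1. H2-Ea had 6.46, 10.35, 9.9, 8.85 and 9.78, against 11.03, 11.08 and 11.3 in culture and 6.01, 6.27, 5.94, 5.57 and 5.45 in PBS brains. All 5 brains lay under culture and above PBS, with brain 1 nearest to PBS (-2.04 ± 0.48, adjusted p = 0.00137). H2-Eb1, the beta chain of I-E, had 6.56, 7.82, 7.62, 7.14 and 7.74, against 8.84, 8.99 and 9.18 in culture (-1.62 ± 0.18). Cd74, the invariant chain that guides class II molecules, had -2.86 ± 0.41. The 3 members with the smallest adjusted p were the peptide-editing chains H2-Ob (-2.51 ± 0.14) and H2-Oa (-1.46 ± 0.12) and Ciita (-1.52 ± 0.12). Ciita had 5.99, 6.36, 6.25, 6.19 and 6.09 in BAL17VII brains, against 7.29, 7.74 and 8.07 in culture and 5.75 to 6.2 in PBS brains, so only brains 2 and 3 exceeded the PBS range. The 3 class II genes among the line-high genes had a median position of 32.05%. Class II genes have similar copies, which leaves single values uncertain.

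All 4 brain-dim genes of MHC class I presentation fell, the peptide-trimming enzyme gene Erap1 (-1.93 ± 0.15), the immunoproteasome subunit gene Psmb8 (-2.16 ± 0.22) and the peptide transporter gene Tap1 (-1.72 ± 0.13) with its partner Tap2 (-0.95 ± 0.11). Of 15 brain-dim type I interferon response genes, 12 fell, 2 rose and 1 was not called, with a median of -1.115. Ddx58, the RNA sensor RIG-I (-2.5 ± 0.13), Oas2, an antiviral synthetase (-2.13 ± 0.13), and the transcription factor gene Irf7 (-2.02 ± 0.12) fell. Ddx58 had 6.58, 7.48, 7.27, 7.02 and 7.17 in BAL17VII brains, against 9.45, 9.6 and 9.87 in culture and 6.45, 6.36, 6.18, 6.6 and 6.37 in PBS brains, again with brain 1 lowest and no overlap with culture. The list rises were Oasl2 (0.91 ± 0.23, adjusted p = 0.00241) and Ifit3 (0.87 ± 0.24, adjusted p = 0.0041). Ifit3 had 6.7, 8.04, 7.67, 6.23 and 7.12, against 6.13, 6.23 and 6.49 in culture and 6.24, 6.42, 6.2, 6.05 and 6.16 in PBS brains. Brains 1, 2, 3 and 5 lay above both other groups and brain 4 lay among them. Ifit and Oas genes have similar copies.

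Of 9 brain-dim genes that respond to interferon gamma, 3 rose, 3 fell and 3 were not called, with a median of 0.337. Rises were those of the GTPase genes Iigp1 (1.55 ± 0.42, adjusted p = 0.004) and Gbp7 (0.79 ± 0.18) and of Ido1 (0.40 ± 0.14), an enzyme of tryptophan breakdown. Iigp1 had 4.68, 7.8, 7.21, 5.23 and 6.64 in BAL17VII brains, against 4.44, 4.67 and 5.25 in culture and 5.15, 4.93, 5.04, 5.24 and 4.83 in PBS brains. Brains 2, 3 and 5 lay above every other array, brain 4 lay at the top of both other ranges and brain 1 lay in the culture range. Falls were those of Cd274, which encodes PD-L1 (-3.43 ± 0.22), Irf1 (-1.37 ± 0.14) and Irgm1 (-0.90 ± 0.19). Cxcl9, a chemokine that draws T cells, had 5.16, 8.02, 7.14, 5.41 and 7.06, against 5.5, 5.66 and 5.95 in culture (0.87 ± 0.39, adjusted p = 0.0562). Without brain 1 it was called (1.22, adjusted p = 0.00429), and the list then had 5 rises and 3 falls.

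All 18 brain-dim mitosis genes fell, with the lowest median of the lists plotted (-2.91). The mean of 19 mitosis genes on the array was 9.89 in culture and 5.66 in PBS brains. The size of a fall depends on that gap. Top2a had 5.23, 9.68, 9.31, 8.85 and 9.41 in BAL17VII brains 1 to 5, against 11.07, 11.12 and 11.25 in cultured BAL17VII and 4.85, 5.74, 5.31, 5.3 and 5.47 in PBS brains. Brain 1 lay in the PBS range, while brains 2 to 5 lay more than 3 log2 units above it and under every culture array. The difference was -2.64 ± 0.57 (adjusted p = 0.000672), and -1.82 without brain 1. Mki67, the proliferation antigen Ki-67, had 5.59, 8.73, 8.24, 8.24 and 8.35, against 10.86, 10.98 and 11.29 in culture and 5.43 to 5.83 in PBS brains (-3.21 ± 0.40, adjusted p = 2.22e-06). Aurkb (-3.05 ± 0.17) and Aurka (-2.41 ± 0.13), kinases of chromosome segregation, and the kinetochore motor gene Cenpe (-3.06 ± 0.18) had the smallest adjusted p. All 14 DNA replication genes fell too, with a median of -1.717, among them the helicase subunit gene Mcm4 (-1.97 ± 0.11), Cdc45 (-2.03 ± 0.12) and Mcm10 (-1.94 ± 0.12). Rrm2 had 6.04, 7.54, 7.16, 6.91 and 7.2, against 8.44, 8.61 and 8.69 in culture and 5.1, 5.63, 5.6, 5.13 and 5.37 in PBS brains (-1.62 ± 0.19, adjusted p = 1.08e-06). All 5 brains lay between the groups without overlap. The 15 mitosis genes among the line-high genes had a median position of 11.96% and the 3 replication genes one of 21.4%. Both lay above the 8.57% of all 199 line-high genes. Myc, not a brain-dim gene, had -3.29 ± 0.35 against culture.

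**Figure D2:**
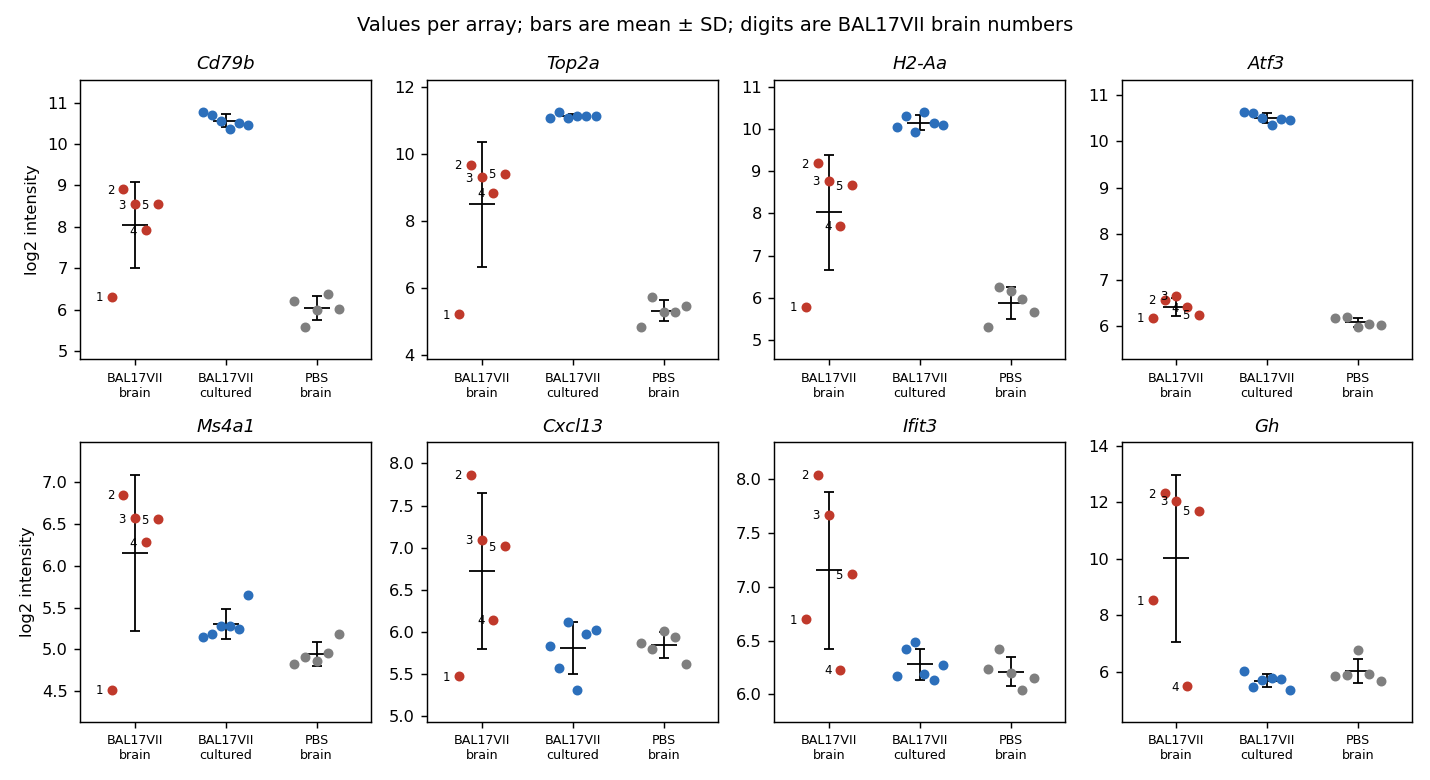
Log2 intensity of 8 genes per array (points) in BAL17VII brains, cultured BAL17VII and PBS brains, with mean ± SD (bars); digits are the numbers of the BAL17VII brains. Cd79b, Top2a and H2-Aa in brains 2 to 5 lie between culture and PBS, Atf3 lies near PBS, and Ms4a1, Cxcl13, Ifit3 and Gh exceed both groups in some brains.

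Genes of activation and survival fell with the rest. Of 10 brain-dim NF-kB targets 9 fell, with a median of -1.189, among them the inhibitor of apoptosis gene Birc3 (-2.8 ± 0.14), Tnfaip3, a brake on NF-kB (-1.38 ± 0.10), and Bcl3 (-1.25 ± 0.09). Of 7 genes of the Bcl2 family 6 fell and 1 rose, Bcl2l2, which encodes the survival protein Bcl-w (0.52 ± 0.10). The proapoptotic members Bcl2l11 (-1.92 ± 0.12) and Pmaip1 (-1.83 ± 0.10) fell, and so did Bcl2 itself, which is not brain-dim (-2.21 ± 0.17). All 5 brain-dim p53 and cell cycle arrest genes fell, the stress sensor gene Sesn2 (-1.65 ± 0.09), the kinase inhibitor genes Cdkn2a (-1.39 ± 0.12), Cdkn2b (-1.09 ± 0.11) and Cdkn2c (-1.77 ± 0.11), and Gadd45b (-0.34 ± 0.11). Of 18 cytokine and receptor genes 14 fell and 1 rose, Osmr, a receptor for oncostatin M (2.01 ± 0.14). Il7r, a receptor of lymphocyte survival, had -2.05 ± 0.11 and Il1b -1.93 ± 0.11. All 7 adhesion genes fell, among them Cd44 (-2.36 ± 0.12), which binds hyaluronan, and the integrin genes Itgb3 (-1.51 ± 0.10) and Itgal (-0.31 ± 0.13, adjusted p = 0.0434). The Itgal difference lies close to the median of -0.249 over all brain-dim genes. Cxcr4, a chemokine receptor gene outside the brain-dim genes, had -1.65 ± 0.27. Cxcr5 had -0.47 ± 0.11 and Il10 -0.41 ± 0.13 (adjusted p = 0.0102), both from culture levels below the limit for brain-dim genes, so these differences rest on dim signals.

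**Figure D3:**
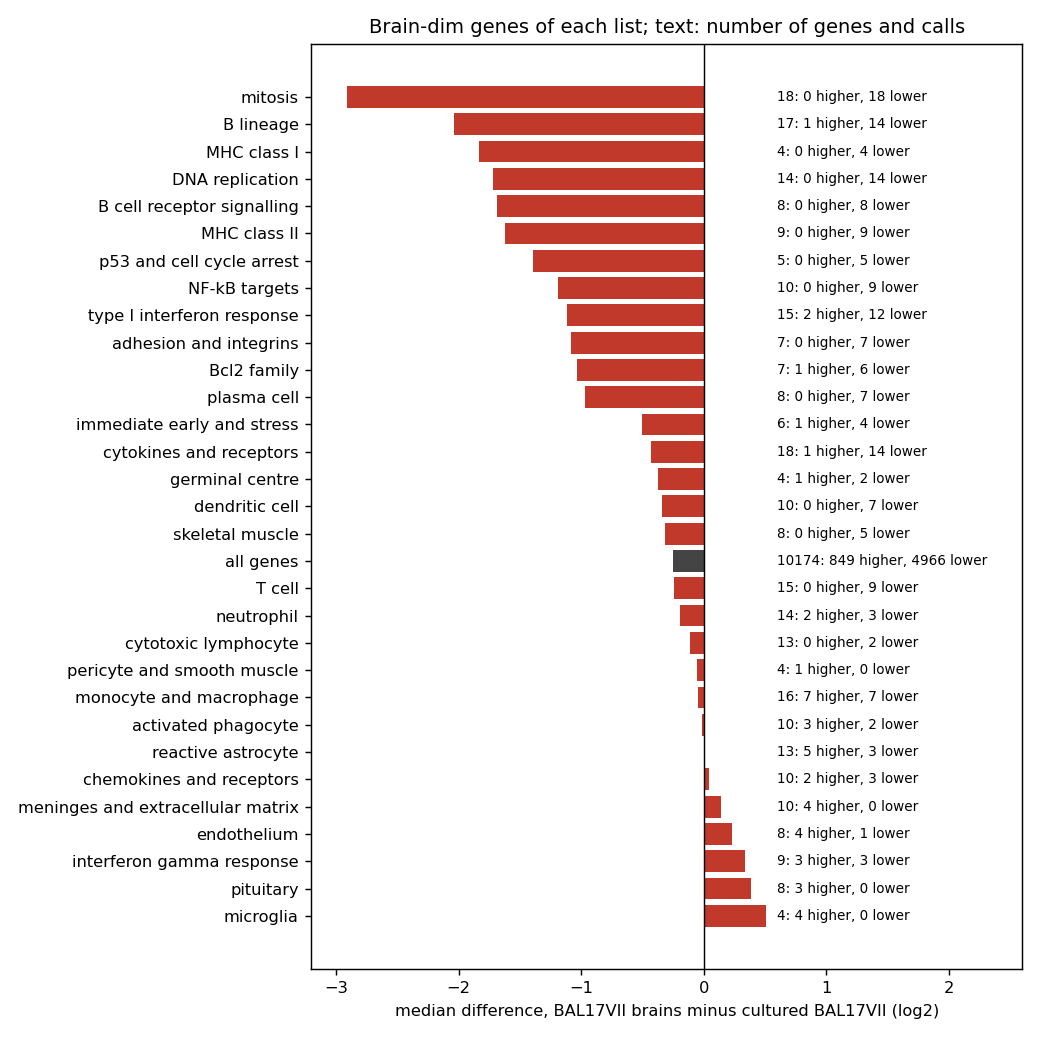
Median difference of the brain-dim genes of each list, BAL17VII brains minus cultured BAL17VII (log2), for lists with at least 4 such genes; text at the right gives the number of genes and how many were called higher or lower. Mitosis has the lowest median (-2.91), and microglia, pituitary and interferon gamma response lie at the other end, while all 10174 brain-dim genes have -0.249 (dark bar). The size of a fall depends on how far culture lay above PBS brains. Medians therefore do not rank lists by their position between culture and PBS brains.

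The 12 largest rises without overlap were genes that PBS brains also held, at levels under the brain-dim limit. Zfp931, a zinc finger gene, had 7.24, 5.93, 6.76, 6.46 and 6.92 in BAL17VII brains, against 2.9, 3.31 and 4.28 in culture and 6.33, 7.18, 6.63, 5.44 and 6.91 in PBS brains (3.28 ± 0.24, adjusted p = 2.78e-09). Brains with and without lymphoma cells overlapped and both lay above every culture array. Ndst4, a heparan sulfate enzyme gene (3.14 ± 0.30), Nexmif (2.73 ± 0.12), Glra3, a glycine receptor subunit gene (2.31 ± 0.23), the ceramidase gene Acer3 (2.26 ± 0.20), Mgat4c (2.34 ± 0.19), Sycp3 (2.41 ± 0.14), Ppil6 (2.65 ± 0.18), Pcdhb9 (2.23 ± 0.13), Pcdhb10 (2.32 ± 0.16), Gm10561 (2.46 ± 0.13) and Gm13629 (2.48 ± 0.20) made up the rest. Their PBS means ran from 6.18 for Sycp3 to 6.73 for Mgat4c, and none of the 12 was called against PBS. Pcdhb genes have similar copies.

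Genes above or below both culture and PBS brains were tested as a separate question. Requiring the same sign against both groups and taking the larger p, limma called no gene after adjustment over all 19938 genes (0%), with 174 brain-dim genes and 412 of all genes at an unadjusted p under 0.05. With all 32 arrays in the fit, or without brain 4, Gh was called. Without brain 1, Ms4a1, Ccl12 and, outside the brain-dim genes, Ifitm3 were called. As a description, chosen after the values were seen, 14 brain-dim genes rose against culture, had a PBS mean within 0.5 of the cultured mean, and lay at least 0.5 above PBS. They were the interferon response genes Ifit3, Oasl2, Ifi202b, Iigp1, Gbp2b and Gbp4, the chemokine genes Ccl12 and Cxcl13, Ms4a1, the complement protease gene C1s1, Egfl6, and the pituitary hormone genes Gh, Cga and Tshb. None of the 14 was called against PBS in the main fit. The limma adjusted p there ran from 0.0545 for Ccl12 to 0.381 for Egfl6.

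Cxcl13, the chemokine that guides B cells to follicles, had 5.48, 7.87, 7.09, 6.14 and 7.02 in BAL17VII brains 1 to 5, against 5.32, 5.91 and 6.12 in cultured BAL17VII and 5.87, 5.8, 6.02, 5.94 and 5.62 in PBS brains. Brain 2 was highest, brains 3 and 5 followed, brain 4 barely exceeded the other groups and brain 1 lay within culture. The difference was 0.91 ± 0.31 against culture (adjusted p = 0.0161) and 0.87 ± 0.32 against PBS (adjusted p = 0.248), and without brain 1 the PBS comparison gave 1.18 (adjusted p = 0.0107). Ccl12, a chemokine that attracts monocytes, had 5.2, 7.2, 6.52, 6.09 and 6.62, against 4.73, 5.07 and 5.56 in culture and 5.42, 5.39, 4.95, 4.75 and 5.12 in PBS brains. It rose by 1.26 ± 0.26 against culture (adjusted p = 0.000415), with brains 2 to 5 above both groups. Against PBS it was not called (1.20, adjusted p = 0.0545). Gbp2b had 5.84, 7.56, 7.36, 6.0 and 7.36 (adjusted p = 0.00171), against 5.47, 5.68 and 5.98 in culture, and Oasl2 had 6.32, 8.06, 7.66, 6.86 and 7.5, against 6.11, 6.38 and 6.57 in culture. Brains 2, 3 and 5 were the highest for Gbp2b and Oasl2. Brain 4 also exceeded every culture array in Oasl2, and barely did so in Gbp2b (6.0 against 5.98).

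**Figure D4:**
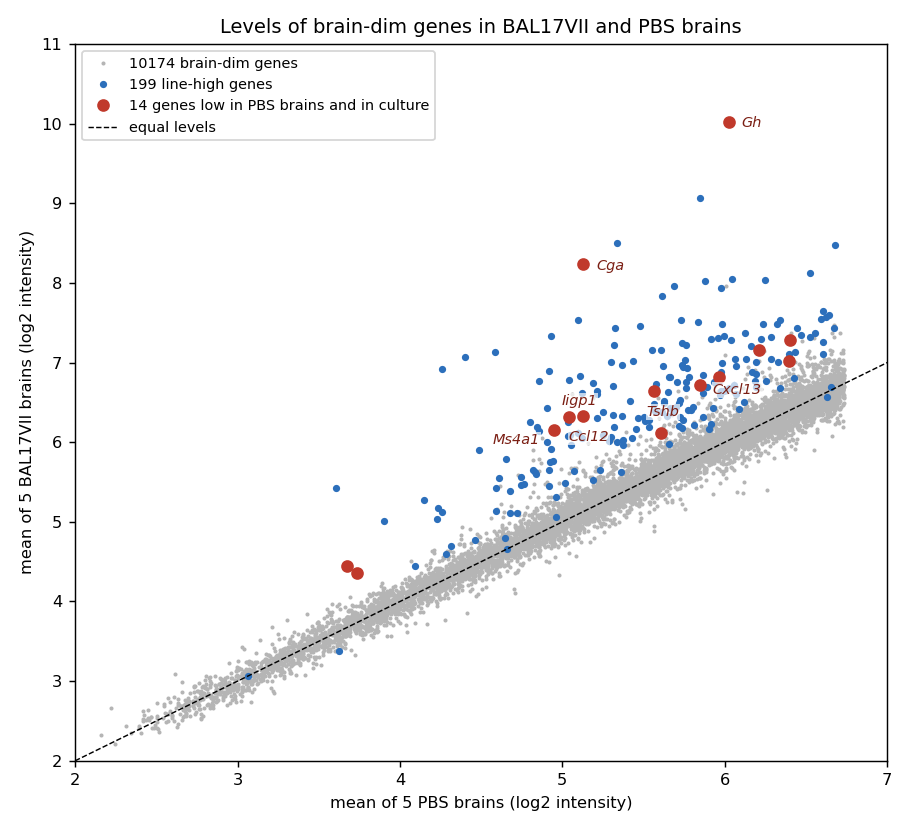
Mean log2 intensity of 10174 brain-dim genes in 5 BAL17VII brains (vertical axis) against the mean in 5 PBS brains (horizontal axis), with 199 line-high genes in blue and 14 genes low in both culture and PBS brains in red. Most genes lie on the line of equal levels, most line-high genes lie above it, and Gh and Cga stand highest among the red points. PBS values helped to choose both coloured sets. Values in BAL17VII brains also chose the red set, so its place above the line was fixed by that choice.

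Pituitary transcripts were high in BAL17VII brains 2, 3 and 5, lower in brain 1 and at the level of the other groups in brain 4. Gh, the growth hormone gene, had 8.53, 12.33, 12.06, 5.49 and 11.7 in BAL17VII brains 1 to 5, against 5.37, 5.71 and 6.03 in culture and 5.87, 5.87, 6.79, 5.92 and 5.68 in PBS brains. Brains 2, 3 and 5 were highest, brain 1 also lay above every culture array and PBS brain, and brain 4 lay within the culture range. Cga, the shared subunit of pituitary glycoprotein hormones, had 5.77, 10.67, 10.26, 4.85 and 9.61, against 5.02, 5.15 and 5.56 in culture. The differences were 4.34 ± 0.91 for Gh (adjusted p = 0.000522), 3.02 ± 0.84 for Cga (adjusted p = 0.00458) and 1.48 ± 0.29 for Tshb, a thyrotropin subunit gene (adjusted p = 0.000286). Against PBS brains these genes were not called (adjusted p = 0.0777, 0.142 and 0.135). Of 8 brain-dim genes of the pituitary list 3 rose and none fell. Prl, the prolactin gene, was not brain-dim and had 11.98, 13.2, 13.2, 5.57 and 13.02, against 4.63, 5.3 and 5.54 in culture and 9.2, 8.86, 10.46, 6.03 and 5.79 in PBS brains. The mean level of 11 pituitary genes was 7.22, 8.61, 8.33, 6.26 and 8.19 in BAL17VII brains 1 to 5, against 5.59 to 5.96 in culture and 6.27 to 6.88 in PBS brains. The order of brains by pituitary genes put brain 4 lowest, whereas line-high genes put brain 1 lowest. How much pituitary each dissected brain held was not tested.

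Markers of other cells that a brain with lymphoma could hold moved in both directions, and their part in the results above was not tested. Of 16 brain-dim monocyte and macrophage genes 7 rose and 7 fell. Rises were those of Lyz1, Fcgr1, Ms4a7, Ms4a6d, Mrc1, Cd163 and F13a1, from 0.31 for Ms4a7 to 0.88 for Ms4a6d. Mrc1, the mannose receptor of tissue macrophages, had 0.78 ± 0.09. The falls included Cybb, a subunit of the phagocyte oxidase (-3.57 ± 0.36), Plac8 (-3.17 ± 0.46) and Ms4a4c (-1.52 ± 0.21), which cultured BAL17VII itself held at 10.59, 10.3 and 7.3. The mean level of 21 list genes was 5.92 to 6.66 in BAL17VII brains, against 6.53 to 6.61 in culture and 5.81 to 6.01 in PBS brains. Lyz2, a lysozyme gene of macrophages that is not brain-dim, had 7.97, 9.47, 9.25, 8.07 and 8.88, against 4.91, 5.15 and 5.77 in culture and 6.88, 7.99, 7.59, 7.37 and 7.39 in PBS brains (3.49 ± 0.24, adjusted p = 1.84e-09). All 4 brain-dim microglia genes rose, the receptor gene Gpr34 (1.66 ± 0.15), Aif1 (0.68 ± 0.13), Fcrls (0.33 ± 0.12, not called without brain 1) and the complement gene C1qa (0.30 ± 0.10, adjusted p = 0.0173). Of all 16 microglia genes on the array 12 rose and 2 fell. Their mean was 6.96 to 7.30 in BAL17VII brains, against 6.28 to 6.55 in culture and 6.98 to 7.30 in PBS brains.

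Of 15 T cell genes none rose and 9 fell, with a median of -0.241, close to that of all brain-dim genes. Cd2, on that list but also high in cultured BAL17VII, had 5.88, 8.87, 8.57, 7.95 and 8.53 in BAL17VII brains, against 11.37, 11.49 and 11.65 in culture (-3.54 ± 0.38), and Cd3e, a chain of the T cell receptor complex, averaged 6.45 ± 0.38 in BAL17VII brains and 6.45 ± 0.06 in culture (SD, adjusted p = 0.995). The mean of the 15 genes was 5.53 to 6.04 in BAL17VII brains, against 6.26 to 6.43 in culture and 5.33 to 5.59 in PBS brains. Of 13 brain-dim genes of cytotoxic lymphocytes 2 fell, the receptor gene Klrk1 (-0.30 ± 0.11) and the death ligand gene Fasl (-0.23 ± 0.09). Both differences lie close to the median of -0.249 over all brain-dim genes, of which 48.8% fell. Means over 15 list genes were 5.12 to 5.63 in BAL17VII brains, against 5.47 to 5.63 in culture and 5.20 to 5.36 in PBS brains. Ccl5, a chemokine gene outside the brain-dim genes, had -2.7 ± 0.26 from a cultured mean of 10.41. Of 10 dendritic cell genes 7 fell.

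The remaining lists had counts of 5 or fewer in a direction, and the genes behind them were named after their values were seen. Rises and falls here are against culture. Against PBS brains no brain-dim neutrophil, endothelial, meninges or pericyte gene was called. Their median differences from PBS brains were -0.001, 0.028, 0.045 and -0.067. Among 14 neutrophil genes, S100a9 (0.44 ± 0.12) and Lcn2 (0.33 ± 0.13) rose and Mmp9 (-0.40 ± 0.10), Camp (-0.26 ± 0.11) and Mpo (-0.27 ± 0.09) fell. Of 13 reactive astrocyte genes, Osmr, S1pr3 (0.84 ± 0.11), Ptx3 (0.46 ± 0.14), Fbln5 (0.42 ± 0.12) and Lcn2 rose, and Cd44, Tgm1 (-0.50 ± 0.11) and Aspg (-0.36 ± 0.11) fell. Gfap, the astrocyte filament gene outside the brain-dim genes, had 2.24 ± 0.16. Of 8 endothelial genes, the growth factor receptor gene Kdr (0.93 ± 0.12), Esm1 (0.42 ± 0.14), Esam (0.35 ± 0.11) and Apln (0.30 ± 0.12) rose and Angpt2, a vessel-destabilising ligand (-1.18 ± 0.10), fell. Genes of the meninges and matrix counted 4 rises of 10, Postn (0.91 ± 0.16), Lum (0.63 ± 0.13), Tnc (0.39 ± 0.14) and Slc22a6 (0.39 ± 0.11), and pericyte genes 1 rise of 4, the potassium channel gene Kcnj8 (0.59 ± 0.12).

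Of 10 genes of chemokines and their receptors, Cxcl13 and Ccl2 (0.32 ± 0.13) rose and Ccr6 (-1.24 ± 0.09), Cxcr5 and Cxcl16 (-0.32 ± 0.10) fell. Of 10 activated phagocyte genes, Ccl12, the receptor kinase gene Axl (0.66 ± 0.12) and Gpnmb (0.36 ± 0.11) rose, and Cd52 (-1.81 ± 0.39) and Ccl4 (-0.35 ± 0.12) fell. With brain 1 included, no brain-dim gene of the chemokine or activated phagocyte list was called against PBS brains. Their median differences from PBS brains were 0.269 and 0.208. Immediate early and stress genes counted 1 rise of 6, Fos (0.26 ± 0.11), and falls of Atf3, Ier2 (-0.91 ± 0.14), the heme oxygenase gene Hmox1 (-0.55 ± 0.11) and Junb (-0.46 ± 0.09). Both brain-dim genes of the MYC and ribosome biogenesis list fell, Cad (-2.33 ± 0.12), which starts pyrimidine synthesis, and Polr1b (-2.15 ± 0.11), an RNA polymerase I subunit gene. The glycolysis gene Hk2 (-2.12 ± 0.11) fell as 1 of 3 hypoxia and glycolysis genes, as did Trib3 (-1.6 ± 0.09), the 1 gene of the unfolded protein response. Small falls, none beyond 0.5, were those of Alas2 (-0.48 ± 0.09) of 2 red blood cell genes, Aqp1 (-0.20 ± 0.08) and Foxj1 (-0.21 ± 0.08) of 3 choroid plexus genes (neither called without brain 1), and Myh4, Ckm, Myl1, Mylpf and Actn3 of 8 skeletal muscle genes, from -0.44 for Mylpf to -0.31 for Actn3. Falls of this size are close to the median of all brain-dim genes.

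Without brain 1 some list calls against culture changed, with differences under 1 except that of Cxcl9. Calls were lost for Fas, Fos, Klrk1, Fcrls, Lcn2, Camp, Apln, Aqp1, Foxj1 and Itgal, for the proapoptotic gene Bik (-0.27 ± 0.11, adjusted p = 0.0559 without brain 1) and for the lymphotoxin gene Lta (-0.24 ± 0.10, adjusted p = 0.0551 without brain 1). Each kept its direction, with a largest adjusted p of 0.0983 for Camp. Beside Cxcl9, rises were then called for the pituitary hormone gene Fshb (0.66), the GTPase gene Gbp3 (0.43), the joining chain gene Jchain of plasma cells (0.36), and the chemokine genes Ccl3 (0.35) and Ccl6 (0.27). Falls were then called for the neutrophil genes Cxcr2 (-0.33) and Elane (-0.30) and the muscle gene Myh1 (-0.28).

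Against PBS brains, division genes made up the list with the most rises. Of 10174 brain-dim genes, 111 (1.09%) rose and 2 (0.0197%) fell. Genes dim in PBS brains have less room to fall, since PBS levels chose them. The implanted brains were common to this and the culture comparison, so their values are given side by side and not as separate evidence. Of 18 mitosis genes 15 rose, as did 4 of 14 replication genes, 2 of 17 B lineage genes, 2 of 9 class II genes, 2 of 15 type I interferon genes, 2 of 4 class I genes and 1 of 8 B cell receptor genes. Named after their values were seen, the replication genes were Mcm6 (1.67 ± 0.31), Rrm2, Mcm3 (1.17 ± 0.23) and Cdc45 (0.65 ± 0.14), and the B lineage genes Cd79b (2.0 ± 0.36) and the coactivator gene Pou2af1 (1.25 ± 0.26). Class II genes were H2-Ea and H2-Aa (2.15 ± 0.48, adjusted p = 0.0482), interferon genes Rtp4 (0.96 ± 0.19) and Ddx58 (0.71 ± 0.14), class I genes Psmb8 (1.04 ± 0.23) and Erap1 (0.81 ± 0.16), and the receptor signalling gene Btk. Single rises were those of Birc3 of the NF-kB targets (0.75 ± 0.17), Cd2 of the T cell list, Plac8 of the macrophage list (2.54 ± 0.50), Wdfy4 of the dendritic cell list (0.82 ± 0.18) and Cd44 of the adhesion and reactive astrocyte lists (0.62 ± 0.12). The falls, Galnt18, a glycosyltransferase gene (-0.43 ± 0.09), and Tmem215 (-0.37 ± 0.08), were both smaller than 0.5 in size. No overlap with PBS was seen in 121 brain-dim genes (1.19%) that lay higher. Among the largest such rises, H2-Ea had 3.22 ± 0.53 (adjusted p = 0.0164), Stap1 2.67 ± 0.47, Cd2 2.27 ± 0.41, Ncapg, a condensin gene, 2.11 ± 0.37, Cmah 1.97 ± 0.29 and Btk 1.91 ± 0.28 (adjusted p = 0.0134). Rrm2 (1.6 ± 0.22), Trip13 (1.5 ± 0.23), Dock2 (1.5 ± 0.27), Shcbp1 (1.43 ± 0.23), Cks2 (1.39 ± 0.26) and Cenpe (1.39 ± 0.23) made up the 12.

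The number of calls against PBS moved with single arrays. Without brain 1 the PBS comparison called 321 brain-dim genes in place of 113 (1.11%), and without brain 4 it called 194. Without brain 3 or brain 5 it called 0, with 816 and 992 genes at an unadjusted p under 0.05, and without brain 2 it called 5. Leaving out PBS brains 1 to 5 in turn gave 23, 103, 16, 7 and 23. Without brain 1, 11 of 17 B lineage genes, 17 of 18 mitosis genes, 8 of 14 replication genes, 6 of 9 class II genes, 8 of 15 type I interferon genes and 5 of 9 interferon gamma genes were called higher than PBS. The interferon gamma genes were Cxcl9 (1.72), Iigp1 (1.68), Cd274 (1.14), Irgm1 (1.06) and Cxcl10 (0.88). The macrophage list then had 4 of 16, Plac8 (3.18), Cybb (2.07), Ms4a4c (1.2) and Ms4a7 (0.49), the pituitary list 3 of 8, Gh (4.37), Cga (3.72) and Tshb (1.28), the activated phagocyte list 4 of 10, Cd52 (2.14), Ccl12 (1.48), Lilrb4a (0.62) and Ccl3 (0.44), the chemokine list 3 of 10, Cxcl13, Ccl6 (0.40) and Ccl9 (0.38), and the T cell list 2 of 15, Cd2 (2.79) and Cd3g (0.65). The counts against culture moved less. Leaving out each array in turn gave 784 to 867 rises and 4327 to 5313 falls among brain-dim genes.

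Whether the step from culture to brain was the same for both lines was tested as a difference of differences, BAL17VII minus BAL17, over 22 arrays at day 21. The change from culture was higher in BAL17VII than in BAL17 for 163 brain-dim genes (1.6%) and lower for 676 (6.64%). A gene whose level differed between the cultured lines has a nonzero value here even where both kinds of brain held it alike. Median positions of line-high genes were also lower in BAL17VII brains (0.19% to 12.2%) than in BAL17 brains (12.3% to 20.4%). That gap lowers the value of a gene high in both cultured lines. How many of the calls it accounts for was not tested. MHC class II genes had the lowest values. H2-Aa averaged 8.02 in BAL17VII brains and 10.15 in cultured BAL17VII, and 8.73 in BAL17 brains and 5.73 in cultured BAL17. The single BAL17 brains had 8.02, 9.08, 9.77, 8.44 and 8.35, within the range of BAL17VII brains but for the highest, while cultured BAL17 lay near the PBS mean of 5.88. The difference of differences was -5.13 ± 0.55 (adjusted p = 3.25e-07), and it was -4.57 without BAL17VII brain 1. H2-Ea averaged 9.07 in BAL17VII brains and 11.11 in culture, and 9.6 in BAL17 brains and 5.67 in culture (-5.98 ± 0.56, adjusted p = 2.98e-08). Of 9 brain-dim class II genes 8 were lower, with Cd74 at -4.43 ± 0.52, and of 15 type I interferon genes 12 were lower. Trim30a (-3.38 ± 0.29), Xlr (-3.46 ± 0.51), Clec2i (-3.68 ± 0.29), C2cd6 (-3.39 ± 0.29) and Cybb (-3.35 ± 0.46) completed the 8 lowest. Trim30a and Xlr have similar copies. Mitosis genes were lower in 2 of 18 cases, Aurka (-0.68 ± 0.17) and Cenpe (-0.85 ± 0.24), with a median of -0.687, against -0.049 over all brain-dim genes.

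**Figure D5:**
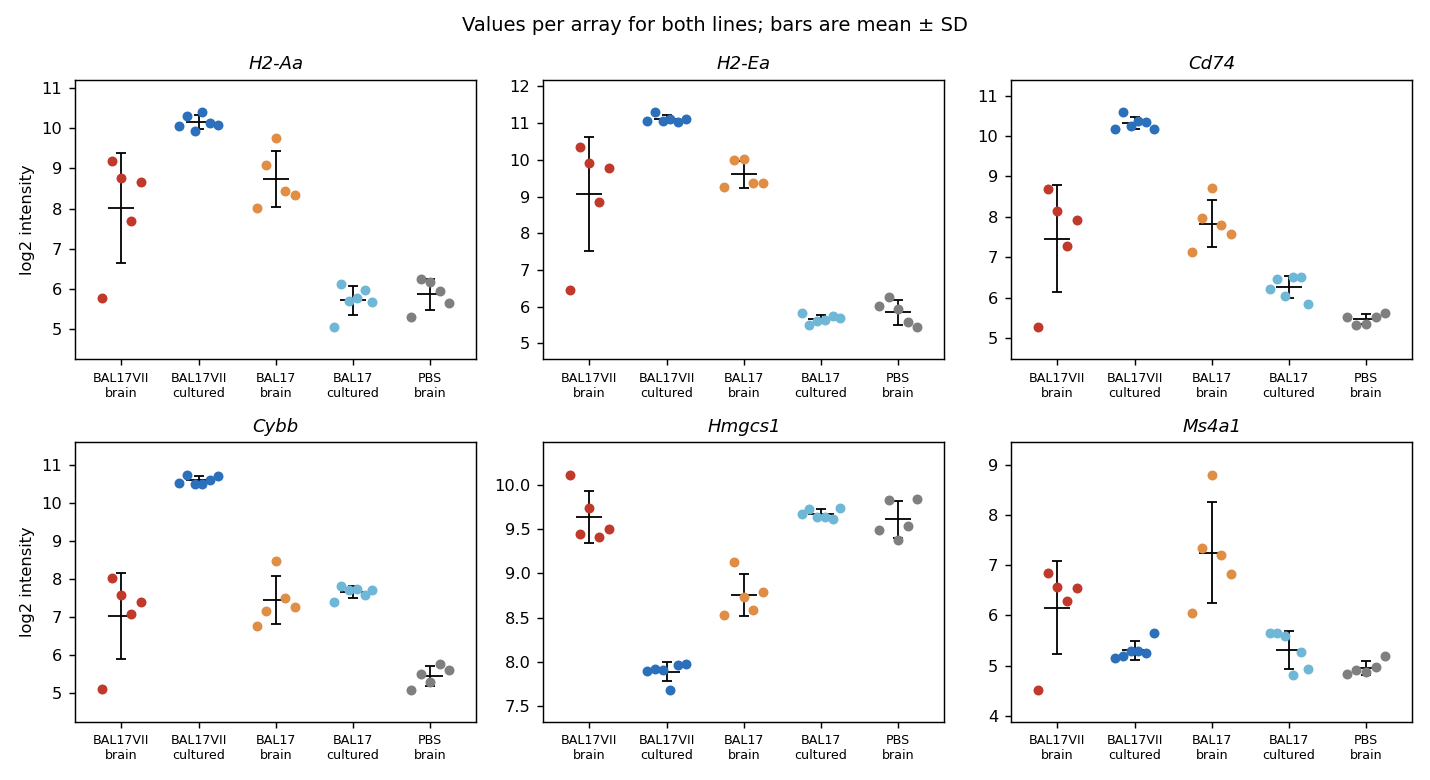
Log2 intensity per array (points) with mean ± SD (bars) of 6 genes in BAL17VII brains, cultured BAL17VII, BAL17 brains, cultured BAL17 and PBS brains. H2-Aa and H2-Ea are high in both kinds of implanted brain but low in cultured BAL17, while Hmgcs1 is lower in cultured BAL17VII than in every other group.

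Higher values of the difference of differences were led by Gh (4.81 ± 1.03), Cga (3.13 ± 0.94), Slc6a3, the dopamine transporter gene (2.43 ± 0.41), Tshb (1.59 ± 0.34), Capsl (1.32 ± 0.25), Cd3g (1.29 ± 0.23), Ndst4 (1.23 ± 0.36) and Gm10561 (1.21 ± 0.24). Gh averaged 5.59 in BAL17 brains and 6.06 in cultured BAL17. Slc6a3 had 8.83, 7.25, 7.82, 6.11 and 6.63 in BAL17VII brains, highest in brain 1, against 6.71, 6.92 and 7.06 in culture. Of 13 cholesterol synthesis genes on the array 12 were higher on this measure, with a median of 1.082, against 6.86% of all genes higher and a median of 0.012. Only 1 of these genes, Mvd (0.47 ± 0.14), is brain-dim, so the level of brain tissue enters the other values. Hmgcs1, the synthase ahead of the rate-limiting step, had 10.12, 9.44, 9.73, 9.41 and 9.5 in BAL17VII brains and 7.69, 7.91 and 7.98 in cultured BAL17VII, against 8.52, 9.13, 8.74, 8.59 and 8.79 in BAL17 brains and a mean of 9.67 in cultured BAL17. It rose against culture in BAL17VII (1.75 ± 0.12), and the difference of differences was 2.67 ± 0.16 (adjusted p = 2.4e-11). Idi1 had 2.24 ± 0.19 and Sqle 1.57 ± 0.19 on the same measure.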

How the data were processed

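Whole-genome expression arrays were measured in 32 samples, of which 5 BAL17VII brains, 6 arrays of cultured BAL17VII, 5 PBS brains, 5 BAL17 brains and 6 arrays of cultured BAL17 were used here. The deposited values are linear intensity per probe set, made by the authors with the RMA method (per the submitters' processing notes, in Affymetrix Expression Console), with versions and build not given in the sources used here. The values ran from 2.72 to 17825 with array medians of 81.7 to 93.0, and RMA carries background correction, quantile scaling and probe set summary, which narrows differences of dim genes. They were changed to log2 with no pseudocount. No detection call came with them, and the number of arrays limits the precision.

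Of 35556 probe sets, 21789 had 1 gene symbol in the platform annotation, 1621 several and 12146 none, and 21698 matched an entry of the RefSeq table. For a gene with several probe sets the one brightest on average over 32 arrays was taken (999 genes had several), which left 19938 genes. Lists held 597 entries, of which 540 matched.

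Fits of 2 groups used limma 3.58.1 in R 4.3.3 with no filter on dim genes, and Benjamini-Hochberg adjustment over all genes at 0.05. The difference of differences used 22 arrays. Tables and plots used Python 3.11.15, pandas 2.3.3, numpy 2.4.6 and matplotlib 3.10.9. The fitting steps were tested on simulated data. Replicate numbers were not used as pairs.

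Named genes were the 12 largest changes in each direction past the threshold without overlap of the 2 groups, 8 in each direction for the difference of differences, the 3 members of each list with the smallest adjusted p, and 27 fixed genes. Members behind counts of 5 or fewer and the genes with the highest and lowest positions were added after their values were seen. The genes, lists and rules were chosen with earlier results of these data known. Alternatives changed the scaling, probe sets, filters, moderation, arrays in the fit, the brain-dim limit and the line-high limit, or left out 1 array. Probe sets with no or several gene symbols were left out.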

Additional observations from a re-analysis of the deposited data

Results flagged for a closer look

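In groups of 5 or 6 arrays, a highest or lowest value far from the other values of its group was found in 38 of 367 groups examined. Chance gives about 1 in 20 for independent groups. The groups examined share arrays, so the count is not judged against that rate. In BAL17VII brains, brain 1 was the low one for Btk (5.43), Cmah (5.52), Cxcr4 (6.92), Dock2 (5.91), Kcnma1 (5.09), Mcm6 (5.92), Mki67 (5.59), Top2a (5.23), Trip13 (5.54), Aurkb (6.2), Meiob (3.01), Ms4a1 (4.52), Oas2 (5.77), Pdcd1lg2 (4.88) and Sympk (6.61). Brain 4 was the low one for Prl (5.57). Brain 2 was high for C1qa (6.85) and brain 1 for Gpr34 (6.57). Among arrays of cultured BAL17VII, 1 array lay low for Aurkb (9.76), Cd44 (8.79), Hmgcs1 (7.69) and Orm2 (8.05), and 1 lay high for C2cd6 (8.0), Cmah (10.55), Erap1 (9.04), Galnt18 (6.04), H2-Ea (11.3), Ms4a1 (5.65) and Top2a (11.25). Among PBS brains, 1 brain lay low for Bcl2 (7.54), Cd2 (5.42) and Clec2i (5.03), and 1 lay high for Cd22 (6.15), Gh (6.79), Glra3 (7.1), Gpr34 (6.74), Idi1 (8.63) and Irgm1 (6.77).

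The change from culture to brain differed between BAL17VII and BAL17 by limma's test of the difference itself. A gap between the cultured lines alone is enough to give such a difference. So are the lower positions of line-high genes in BAL17VII brains than in BAL17 brains. Of 76 named genes called, the 8 largest differences of each sign among brain-dim genes are given here. It was lower in BAL17VII for H2-Ea (-5.98), H2-Aa (-5.13), Cd74 (-4.43), Clec2i (-3.68), Xlr (-3.46), C2cd6 (-3.39), Trim30a (-3.38) and Cybb (-3.35). It was higher for Gh (4.81), Cga (3.13), Slc6a3 (2.43), Tshb (1.59), Capsl (1.32), Cd3g (1.29), Ndst4 (1.23) and Gm10561 (1.21).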

How the results depend on the processing

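Among brain-dim genes, rises against culture numbered 88 and falls 2103 when genes had to exceed the array median on at least 5 arrays, 9 and 1266 with a filter on the mean of group means, 75 and 755 with a tested change of at least 1, and 140 and 2363 with the brain-dim limit at the 25th percentile. Filters and that limit leave fewer genes by construction. Against PBS the main count of 113 became 31 and 30 under the filters, 52 with trended and robust moderation, 315 with 32 arrays in the fit, 180 with the replicate number as a block, 0 with a tested change of at least 1, 44 at the 25th percentile limit, and 0 to 321 with 1 array left out. The main count of genes outside both culture and PBS was 0, and it was 1 with 32 arrays, 2 without brain 1 and 1 without brain 4. For the difference of differences, 163 higher calls became 82 and 40 under the filters, 0 with a tested change of at least 1 and 54 at the 25th percentile limit, and 676 lower calls became 389, 45 and 212 under the filter on group means, the tested change and that limit. The labels name no link between same-numbered samples beyond the number, and do not state whether they were handled together. Their deviations correlated from -0.149 to 0.012 between BAL17VII brains and culture, from -0.237 to 0.266 between BAL17VII and PBS brains, from -0.122 to 0.196 between BAL17VII and BAL17 brains and from 0.005 to 0.181 between the cultured lines, where 3 of 5 matched their own number best. With the replicate block 1 gene that is not brain-dim, Lyz2, was called outside both culture and PBS, and the culture comparison gave 792 rises and 4551 falls. Kcnma1 reversed to 0.56 with the mean of all its probe sets. The cause of the other changes was not tested. The median position of 9.44% stayed between 7.85% and 9.72% under all alternatives run. Of the alternatives for named genes called against culture, 2377 kept direction and call and 42 lost the call. Against PBS 370 kept and 307 lost it, and for the difference of differences 2317 and 89. Differences of genes near background are narrowed on arrays, and 5 or 6 arrays a group limit all comparisons.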
